A study of Mus musculus with 10 samples.

Results

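Autosomal CpGs that were read on both DNA strands (dyads) were examined in prospermatogonia, the germ cells of the fetal testis. A CpG was taken as a dyad when the deposited table held its plus-strand cytosine and, at the next position, its minus-strand cytosine. This gave 312039 dyads of 1016650 autosomal CpGs (30.69%). The other 704611 CpGs were read on 1 strand only. Methylation was measured by reduced representation bisulfite sequencing (RRBS), in which DNA is cut with MspI at CCGG, unmethylated cytosines are converted, and methylated and unmethylated reads are counted at each cytosine. Each group had 5 samples. F0 dams of the C3H/HeN strain drank tap water during gestation in the control group and tap water with sodium arsenite during mid to late gestation in the arsenic group. Every sample was DNA pooled from the testes of many late-gestation fetuses after magnetic selection with an antibody to Thy1.2, so differences between individual fetuses cannot be seen, and bisulfite data hold no transcripts by which the cell type could be checked.

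The CpG is a palindrome, so both strands carry a cytosine at the same site. After DNA replication, DNMT1 with UHRF1 copies methylation from the old strand onto the new strand. DNMT3A and DNMT3B, aided by the cofactor DNMT3L, write methylation anew in prospermatogonia, which are arrested in the cell cycle at this stage. A dyad methylated on 1 strand only is called hemimethylated. In RRBS the plus and the minus strand are read from different molecules, so hemimethylation of a single molecule was not observed here. What was measured is the strand difference, the level on the plus strand minus the level on the minus strand in percentage points, where the level is the share of methylated reads on that strand.

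The dyads on which the results below turn are shown by 30 bases of the plus strand of GRCm38 (mm10), with the CpG, or the whole CCGG where the dyad lies in 1, in capitals. The first has equal strands, the next 5 are among the 6 named for large differences outside CCGG, and the last 2 were named for large differences inside CCGG. They lie in this order: an intron of Ppp1r21 at chr17:88558730-88558759, an intron of Apaf1 at chr10:90992013-90992042, an intron of Spata16 at chr3:26858680-26858709, an intron of Agbl4 at chr4:110960095-110960124, both sites near Gm27393 at chr11:7869957-7869986 and chr11:7869994-7870023, an intron of Shb at chr4:45457988-45458017, and intergenic sequence near Gm10790 at chr13:41864024-41864053.
Ppp1r21: ttattggccggtaaCGcttttaactgtgaa
Apaf1: atgagctccgggggCGggggggggggggcg
Spata16: ccccaatccaatcgCGcggatcctgagact
Agbl4: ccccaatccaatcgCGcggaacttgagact
Gm27393, first site: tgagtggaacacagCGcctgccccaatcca
Gm27393, second site: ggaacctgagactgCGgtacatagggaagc
Shb: ttccctcaggaacCCGGattatctttgtgg
Gm10790: agaaaaccaaagaCCGGgattgtatggaga

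Over each pool the strands of a dyad lay close together. Pearson's r between plus and minus levels across dyads, which are not independent replicates, ranged from 0.896 to 0.927 over the 10 pools. The strands were within 10 points of each other at 60.8% to 67.7% of dyads and within 20 points at 81.3% to 87.6%, and the median absolute difference was 5.21 to 6.67 points. Averaged over all dyads, plus exceeded minus by 0.0177 points (exact sign-flip permutation over 10 pools, two-sided p = 0.332), so neither strand was higher as a whole. Median coverage was 28 to 48 reads per strand, and each pool held 23786208 to 35936322 calls at dyads. The mean level was 44.3% ± 0.503 (SD, n = 5) in control and 43.7% ± 1.77 (SD, n = 5) in arsenic pools, a difference of -0.550 points (exact permutation over all group assignments, two-sided p = 0.659). Arsenic 1 had the lowest level, 40.9%, and without it the difference was 0.160 points. In the whole table the CpGs read on 1 strand had slightly higher means, 47.2% in control and 46.5% in arsenic pools.

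Ppp1r21, whose product acts in endosome traffic, shows what an intermediate and equal dyad looks like. Its plus level was 34.6% to 57.1% over the 10 pools, and its minus level was 46.2% ± 1.93 in control and 45.1% ± 6.40 in arsenic pools (SD, n = 5 each). The strand difference over the 10 pools lay between -6.29 and 5.76 points and crossed 0. The other dyad named for equality, near Gm48222 on chr13 at 66062738, had plus levels of 46.9% and 52.6% and minus levels of 44.5% and 49.6% in control and arsenic pools. Both were chosen for their small differences, which are therefore descriptions.

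The spread of the strand difference was split by what the pools shared. In a single pool its SD was 14.2 to 17.1 points. Sampling of independent reads would give 26.2% to 28.8% of that variance, or 54.7% to 60.3% if every read had been counted in both mates. The covariance between different pools, which counting error does not enter, made up 26.5% to 38.0%. Expressed as an SD, the shared strand difference was 8.70 points over all dyads, 5.68 points over the 292441 dyads outside CCGG and 26.9 points over the 19598 dyads inside CCGG. Strand differences of separate pools correlated across dyads with Pearson's r of 0.131 to 0.205 outside CCGG and 0.751 to 0.830 inside it, as a description.

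A strand difference was tested at each dyad with limma on the difference of log2((methylated + 1)/(unmethylated + 1)) between strands, over 10 pools, with Benjamini-Hochberg adjustment over all dyads. A call required an adjusted p under 0.05 and a mean difference of at least 10 points. Of 312039 dyads 19178 were called (6.15%), 9569 with plus higher and 9609 with minus higher. Of the called dyads 8352 (43.5%) had the same sign in 10 of 10 pools, against 7.20% of all dyads. The calls were made from the same pools, which favours equal signs, so this share is a description. The count fell to 11792 on the scale of percentage points and to 8605 with a minimum of 20 points. Inside CCGG 4010 dyads were called (20.5%) and outside it 15168 (5.19%), the latter with 7584 in each direction. The size differed as well. Among called dyads the median absolute difference was 60.9 points inside CCGG and 17.9 points outside. The larger size inside CCGG lay at the ends of fragments of 150 or 151 bases, described below.

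Repetition over pools gave the same division. With Fisher's exact test in every pool (adjusted p under 0.05 and at least 20 points), 222333 dyads (71.3%) were discordant in 0 pools, 55990 in 1 pool and 2182 in 10 of 10 pools. Of the dyads discordant in all 10 pools, 2056 lay in CCGG (10.5% of the dyads there) and 126 outside (0.0431%), beside 0.699% of all dyads. Reads are not independent molecules, so these shares describe the pools.

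The asymmetry at CCGG followed the length of the MspI fragment that the site ends. In RRBS the cut ends are filled in by a polymerase with cytosines that carry no methylation, so at a fragment end the strand that starts there keeps its own cytosine and the other strand is read through the filled-in base. The strand that starts at the end is called near here and the other far, and lengths include both filled-in ends. These classes were chosen after the values were seen. At 1831 CCGG dyads the only fragment of up to 600 bases was 150 or 151 bases long, and there the far strand was almost unmethylated.
Over those 1831 dyads the near strand was 77.6%, 75.5%, 75.7%, 75.8% and 77.2% methylated in control pools 1 to 5 and 68.9%, 76.4%, 76.2%, 77.8% and 80.2% in arsenic pools 1 to 5. The far strand was at 6.84%, 7.24%, 6.72%, 6.78% and 6.87% in the control pools and at 6.41%, 6.35%, 7.52%, 7.22% and 6.75% in the arsenic pools. In each pool the near strand was thus far above the far strand, while the groups overlapped on both. At 150 bases (639 dyads) the near minus far difference was 73.9 points ± 2.24 (SD over 10 pools) and 97.3% of dyads were called. At 151 bases (1192 dyads) it was 66.8 points ± 3.17 and 98.3% were called.

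**Figure D1:**
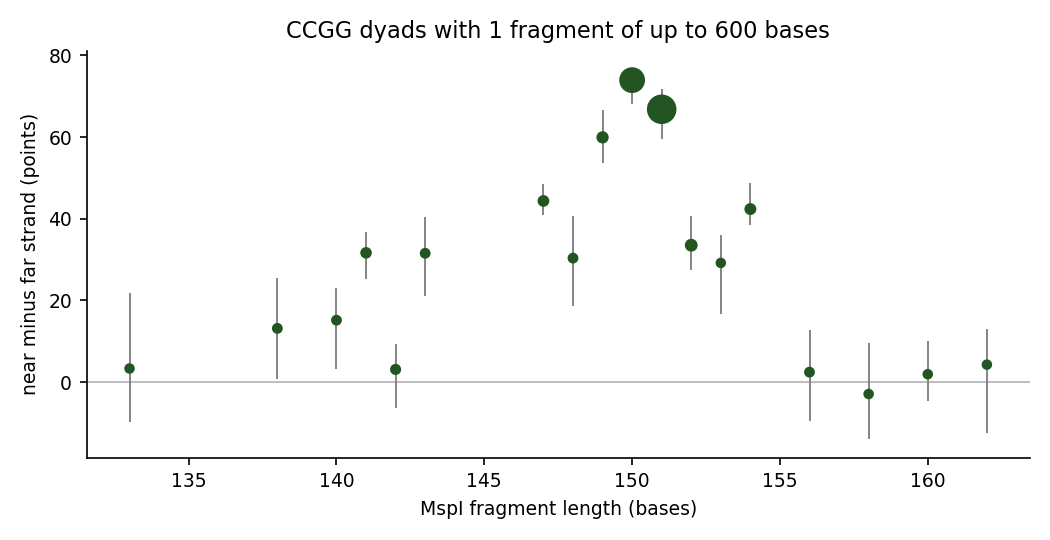
Near minus far strand level in percentage points (y axis) at CCGG dyads against the length in bases of the single MspI fragment of up to 600 bases they end (x axis), at lengths with at least 3 dyads. Points are means over 10 pools, larger where more dyads stand behind them, and bars run from the lowest to the highest pool; the difference peaks at 73.9 points at 150 bases and 66.8 points at 151 bases.

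The difference turned over with the side of the fragment and fell off on both sides of those lengths, with a shoulder below them, as the plot by fragment length shows. With the fragment to the right of the site plus was the higher strand, by 74.5 points at 150 bases, and with the fragment to the left minus was higher, by 73.3 points. Lengths next to the peak were rare. Below it, 15 dyads at 148 to 149 bases gave 52.0 points, 10 dyads at 145 to 147 bases 44.6 points, 22 dyads at 140 to 144 bases 22.6 points and 38 dyads at 120 to 139 bases 8.23 points. Above it, 29 dyads at 152 to 155 bases gave 33.4 points. At 100 to 119 bases (53 dyads) the near strand was higher by 2.09 points and at 156 to 199 bases (66 dyads) by 5.86 points. Where a site ended a fragment of 100 to 300 bases on both sides, a fragment of 150 or 151 bases on 1 side gave 31.3 points near minus far. Of these 476 dyads 353 were called (74.2%). Without such a fragment there was no side to turn by, and plus minus minus averaged -0.0294 points (11270 dyads). Differences of opposite sign cancel in that average, so it is not comparable with the former value. Of these dyads 577 were called (5.12%). In all, 3154 CCGG dyads ended a fragment of 150 or 151 bases and 2884 of them were called (91.4%). The remaining 16444 had 1126 calls (6.85%) and a shared SD of 8.71 points. The median absolute difference of called dyads was 68.6 points at the former and 17.9 points at the latter, the same as outside CCGG. No class differed between groups (exact permutation, two-sided p of 0.214 to 1 before adjustment). The length of the reads and the trimming mode are not given in the sources used here, and the part of the filled-in bases in the difference was not tested.

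Inside the same fragments neither the plus nor the minus strand was higher on average. The 1283 fragments of 150 or 151 bases held 1727 further dyads with a mean level of 59.9%. Over the 10 pools these averaged 55.6% to 62.2% on the plus and 55.5% to 62.5% on the minus strand. Differences of opposite sign cancel in those averages, as they would at the fragment ends. Near and far strands were not compared inside the fragments. The median absolute mean difference, in which signs do not cancel, was 3.80 points. It was 66.7 points at the 3154 CCGG dyads that end a fragment of 150 or 151 bases. Of these inner dyads 226 (13.1%) were called, beside 5.19% of all dyads outside CCGG and 1794 (98.0%) of the 1831 dyads at the ends of the same fragments.

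Shb, which encodes an SH2 adaptor of receptor tyrosine kinases, holds the CCGG dyad named with plus higher. It lies at the left end of a 150-base fragment on chr4 at 45458002, and its plus level was 96.5% ± 1.51 in control and 99.1% ± 1.32 in arsenic pools against 5.43% ± 6.28 and 2.06% ± 2.90 on minus (SD, n = 5). The site near Gm10790, at the right end of a 150-base fragment on chr13 at 41864038, was its mirror image, with minus at 96.7% and 96.0% and plus at 0.690% and 0.714%. Coverage was 24 to 90 reads per strand at the former and 15 to 159 at the latter.

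**Figure D2:**
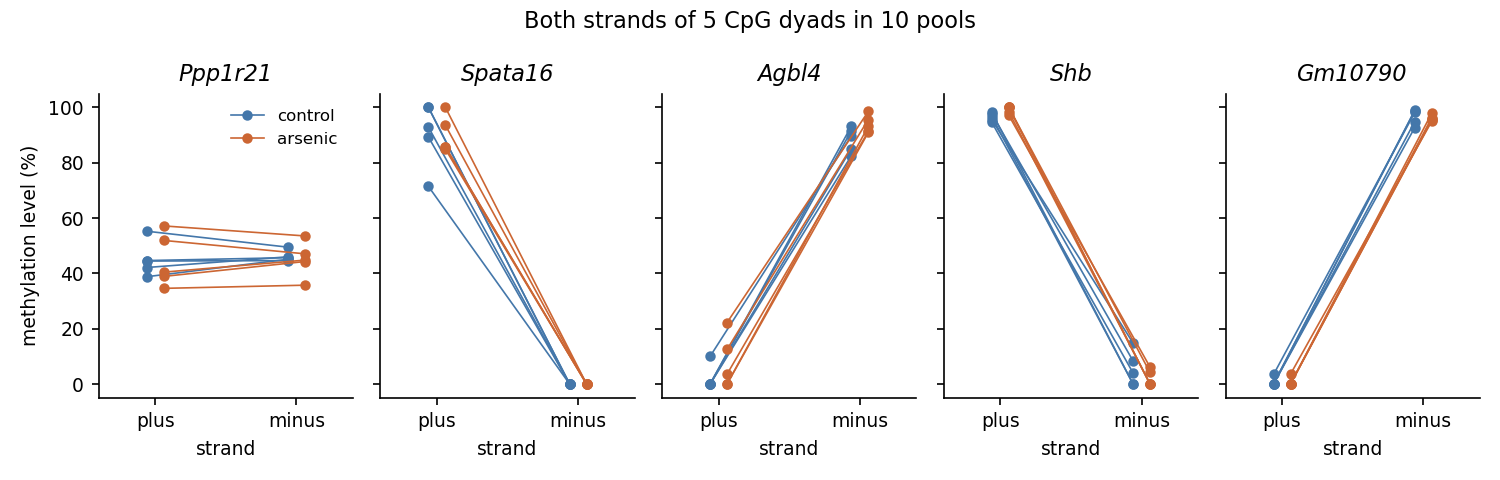
Methylation level in percent (y axis) on the plus and minus strand (x axis) of 5 named dyads, with a line for each of the 5 control and 5 arsenic pools. The strands of Ppp1r21 stay between 34.6% and 57.1%, whereas 1 strand of the other 4 dyads lies at or near 0 in every pool, at most 22.2% (Agbl4).

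Outside CCGG large differences were rare. Only 460 of 292441 dyads (0.157%) reached 40 points, and 15 had 1 strand under 5% and the other over 50% in 10 of 10 pools. Of these 15 dyads 12 lay in soft-masked sequence, the annotation of repeats in the assembly, against 14.3% of all dyads outside CCGG. Coverage was also more uneven at the dyads of 40 points or more: the strands differed 1.97-fold at the median, against 1.42-fold at dyads not called. The part of mapping between copies in these differences was not tested.

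The largest difference outside CCGG lay in Apaf1, the core of the apoptosome, on chr10 at 90992027. The plus strand was at 100%, 90.9%, 100%, 100% and 85.7% in control pools 1 to 5 and at 100%, 95.5%, 100%, 100% and 95.2% in arsenic pools 1 to 5. The minus strand was at 0% in all 10 pools, on 16 to 40 reads, while the plus strand had 10 to 22 reads. The window shown above is a run of guanines broken by the CpG, and the dyad is 6 bases from the fragment's left end.

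Spata16, needed for formation of the sperm acrosome, and Agbl4, a carboxypeptidase that shortens glutamate chains on tubulin, carried nearly the same sequence with opposite asymmetry. At Spata16 plus was at 89.3%, 100%, 100%, 71.4% and 92.9% in control and 84.9%, 93.5%, 100%, 85.7% and 85.7% in arsenic pools, and minus at 0% in all 10. At Agbl4 minus was at 91.5%, 93.2%, 85.1%, 82.5% and 89.7% in control and 95.6%, 93.1%, 91.3%, 98.5% and 90.9% in arsenic pools, and plus at 0% to 22.2%. In neither gene did the strands overlap in any pool, and in both the groups overlapped. The windows of 30 bases differ by 2 substitutions, T21A and C23T, counted from 1 at the 5′ end with the Spata16 base first. Both dyads sit 115 bases from the left end of a 158-base fragment.

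That sequence is a repeat with many copies among the dyads, and nearly all copies were balanced. The search for copies was made after the values were seen. Within 3 mismatches of the Spata16 window, in either orientation, lay 544 other dyads on 19 chromosomes, and 99.1% of the family was soft-masked. The median strand difference of the 545, turned to the Spata16 orientation, was -0.0255 points, 499 (91.6%) were under 10 points and 21 (3.85%) were called, beside 6.15% of all dyads. In the family 7 dyads reached 40 points, 3 in 1 direction and 4 in the other. Reads of near-identical copies cannot always be told apart, so the level at any single copy is uncertain.

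**Figure D3:**
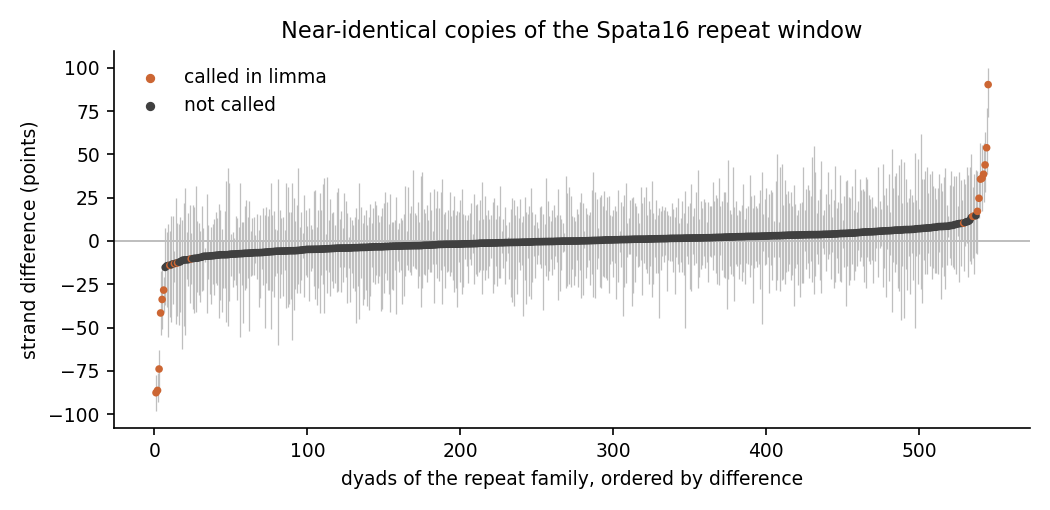
Strand difference in percentage points (y axis) of the 545 dyads within 3 mismatches of the Spata16 window, ordered by size (x axis). Points are means over 10 pools, grey lines run from the lowest to the highest pool, and colour marks calls in limma; 499 dyads lie within 10 points of 0 and 7 lie at 40 points or more.

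Near Gm27393 a pair of dyads 37 bases apart in the same 158-base fragment were asymmetric in opposite directions. At 7870008 plus was at 95.6% ± 6.17 in control and 94.5% ± 12.2 in arsenic pools and minus at 0% and 0.364%. At 7869971 minus was at 86.1% ± 9.61 and 85.7% ± 11.1 and plus at 0% and 0.833% (SD, n = 5 each). The window of the former resembled 447 other dyads within 3 mismatches and that of the latter 770, with medians of 4.39 and 0 points. Of the former family 40 of 448 dyads were called (8.93%), 32 of them in the direction of 7870008, and of the latter 27 of 771 (3.502%), beside 6.15% of all dyads. The families had mean levels of 87.2% and 77.9%. Outside CCGG 9.26% of dyads were called at levels of 80% to 90% and 9.87% at 70% to 80%, so the former share was near that of its level. A dyad near Gm43234 on chr5 at 79249791, whose window belongs to the former family, went the other way from it, with minus at 83.2% and 86.7% and plus at 0% in all 10 pools. The site at 7869971 lies 95 bases from the left fragment end, and those at 7870008 and near Gm43234 lie 132 bases from it. The window of 7869971 ends with the bases that begin the Spata16 window, and that of 7870008 begins with nearly the bases that end it. By sequence and place, the dyads named for large differences outside CCGG, other than Apaf1, were thus positions of 1 kind of repeat. They are not independent cases.

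Over all dyads outside CCGG the bases before and after the CpG went with a small strand difference. Each flank that is not a palindrome reads differently on the strands, and the 6 possible pairs were tested over 10 pools. All 6 gave a difference of 1 sign in 10 of 10 pools (exact sign-flip permutation, two-sided p = 0.00195, adjusted over the 6 p = 0.00195, the smallest possible). The strand that reads ACGC exceeded the strand that reads GCGT by 1.85, 1.90, 1.93, 2.11 and 1.47 points in control pools 1 to 5 and by 1.88, 1.74, 1.91, 1.43 and 0.906 points in arsenic pools 1 to 5. The mean was 1.71 points ± 0.352 (SD, n = 10), and it mirrored with orientation, at 1.70 points plus over minus for 18289 ACGC dyads and -1.73 points for 18367 GCGT dyads. The groups overlapped, and arsenic 5 had the lowest value.

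The other flanks followed in decreasing order. CCGA exceeded TCGG by 1.24 points ± 0.259, CCGC exceeded GCGG by 0.885 ± 0.305, and TCGC exceeded GCGA by 0.816 ± 0.309 (SD, n = 10). ACGG exceeded CCGT by 0.674 points ± 0.132 and ACGA exceeded TCGT by 0.521 ± 0.0996. The strand with A before the CpG was thus the higher strand in all 3 pairs that have 1, and the strand with G before the CpG was the lower strand in all 3 pairs that have 1. Arsenic minus control differences were -0.278 to -0.0216 points with adjusted p of 0.381 to 0.754 (exact permutation). They rested largely on arsenic 5: without it the difference was -0.111 points for ACGC over GCGT (from -0.278), -0.105 for CCGA over TCGG (from -0.223), -0.0657 for CCGC over GCGG (from -0.210) and -0.0780 for TCGC over GCGA (from -0.216). Palindromic flanks read alike on both strands, and their plus minus minus differences were smaller. ACGT gave 0.0570 points (p = 0.219, exact sign-flip permutation), GCGC 0.0779 (p = 0.00781), CCGG 0.119 (p = 0.00586) and TCGA -0.165 points (p = 0.00195).

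Flanks of 2 bases on each side, examined after the values were seen, gave a wider range of differences. The median over 114 pairs was 1.08 points, with each pair turned so that its mean was positive, and 27 pairs reached 2 points. Of the 114 pairs, all outside CCGG, 101 had an adjusted p under 0.05 (exact sign-flip permutation), 82 had 1 sign in 10 of 10 pools and 107 mirrored with orientation. The widest was CACGGC over GCCGTG, 5.87 points ± 0.819 (SD, n = 10) over 4000 dyads, and 9.55 points at levels of 20% to 80%. In its forward orientation the plus strand was at 49.7% and the minus strand at 43.8%. CACGCC over GGCGTG followed with 4.54 points, AACGCC over GGCGTT with 3.79 and CACGTT over AACGTG with 3.71. Between groups 0 pairs had an adjusted p under 0.05 by exact permutation and 7 had an unadjusted p under 0.05. The oriented difference was smaller in arsenic pools in 97 of 114 pairs, and these pairs share the same pools.

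A short search was made for letters of the right-hand core of the CTCF motif, since CTCF binds DNA in a fixed orientation. The strand reading AGGGGGCGC was lower than its partner by -1.35 points (123 dyads, 0.0394% of all, 10 of 10 pools, adjusted p = 0.00391, exact sign-flip permutation over 10 pools). For AGGTGGCGC it was -2.42 points (144 dyads, 10 of 10 pools, adjusted p = 0.00391). AGAGGGCGC gave -0.795 points (136 dyads, adjusted p = 0.0938) and AGATGGCGC 0.319 points (234 dyads, adjusted p = 0.174). Both strands were searched, and a match is a match of letters only. All 4 motifs hold the palindromic flank GCGC, but with 2 bases on each side their flank starts with GGCGC. Over all dyads with such flanks, TGCGCC exceeded GGCGCA by 1.55 points, AGCGCC exceeded GGCGCT by 1.02 and CGCGCC exceeded GGCGCG by 0.295. The strand starting with GGCGC was thus lower without regard to the motifs, and a part of the motif beyond this flank was not tested.

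The strand difference depended on the level. Outside CCGG its shared SD was 0.569 points at levels of 0% to 5% (102116 dyads), rose to 10.03 points at 40% to 50% (12033 dyads) and was 1.35 points at 95% to 100% (3806 dyads). No dyad at 0% to 5% or at 95% to 100% was called. Below 5% and above 95% a difference of 10 points cannot arise, so the rule for calls fixed this. The same bound limits the shared SD in these bins. From 10% to 90% the called share stayed between 7.36% and 10.4%. Promoter dyads, with a mean level of 8.81%, had few calls: 1.20% of 58302 were called against 4.86% in exons, 6.26% in introns and 6.89% in intergenic sequence. At levels of 20% to 80% the shares were 6.82%, 8.22%, 9.24% and 8.59%, and 10.7% in soft-masked sequence against 8.16% outside it. Shared SD at these levels was 7.52 points at dyads with 0 other CpGs within 100 bases (1304 dyads), 7.78 points with 5 to 6 (25569 dyads), 9.95 points with 11 to 15 (5179 dyads) and 8.56 points with 21 to 60 (332 dyads). It lay between 7.52 and 9.95 points over all 8 classes of density and had no single direction.

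**Figure D4:**
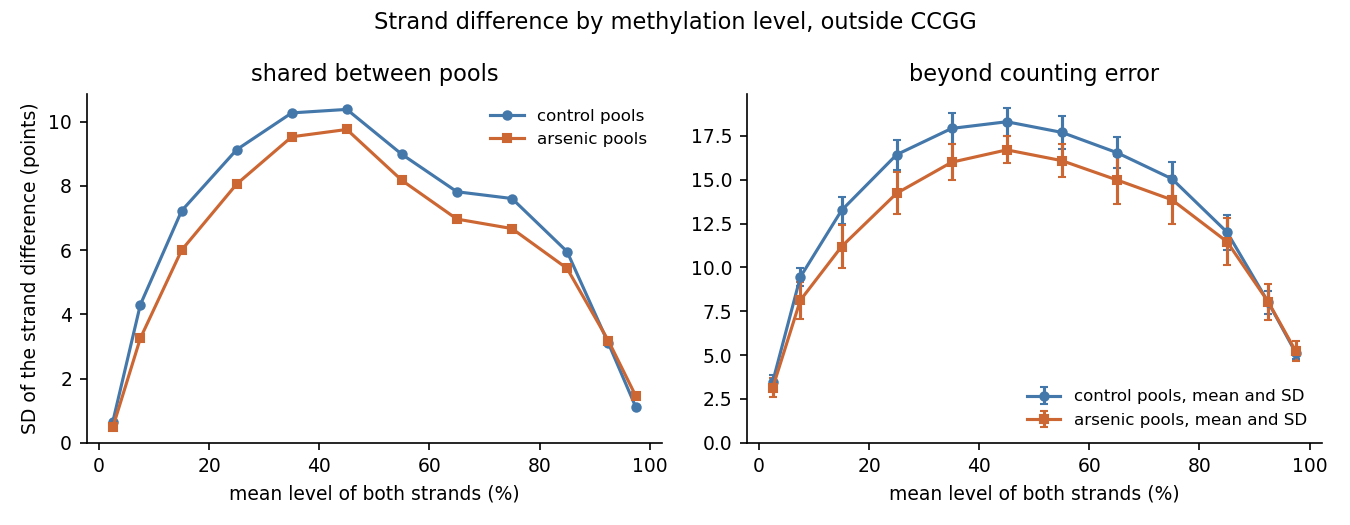
SD of the strand difference in percentage points (y axes) outside CCGG against the mean level of both strands in percent (x axes). The left panel gives the SD shared between the pools of a group and the right panel the SD beyond counting error with its mean and SD over 5 pools; both are largest at 40% to 50%, where the latter was 18.3 in control and 16.7 in arsenic pools.

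Strand differences beyond counting error were smaller in arsenic pools. Counting error here takes reads as independent, so the SD would be too high if mates were counted in both reads. This SD, which subtracts the binomial variance of both strands, was 13.3, 14.5, 13.2, 13.9 and 13.1 points in control pools 1 to 5 and 13.4, 12.1, 13.1, 12.7 and 12.5 points in arsenic pools 1 to 5. The means were 13.6 ± 0.590 and 12.7 ± 0.502 points (SD, n = 5), a difference of -0.857 points (exact permutation, two-sided p = 0.0476), and the groups overlapped. Leaving out control 1, 2 or 4 or arsenic 2, 3, 4 or 5 gave -0.944 to -0.634 points with exact permutation p of 0.0556 to 0.111, and leaving out arsenic 1 gave -1.01 points (p = 0.0159). The value outside CCGG was -0.991 points (exact permutation p = 0.0635). In 12 bins of level outside CCGG the arsenic mean was lower in 10, with adjusted p = 0.0476 at 10% to 20% (-2.07 points) and at 40% to 50% (-1.60 points). Without any 1 of the 5 control pools, or without arsenic 2, 0 of the 12 bins had an adjusted p under 0.05. In both bins all 5 arsenic pools lay below the control mean.

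The coverage and the doubling of reads moved with the groups as well. Arsenic pools held more calls at dyads, 29799845 to 35936322 against 23786208 to 32161824 (exact permutation, p = 0.0556). The authors had left out an arsenic sample of prospermatogonia for its low read number, so this comparison follows a filter on depth. Among cytosines with an even coverage, a share that rises when both mates of a read pair are counted, the methylated count was even too at 84.5% ± 0.664 in control and 82.5% ± 1.63 in arsenic pools (exact permutation p = 0.0317). With reads thinned to 10 per strand the difference in SD was -0.891 points (exact permutation p = 0.0317). Thinning draws from the same reads and leaves this estimate where it was on average, at 13.6 points in control and 12.7 in arsenic pools. It therefore cannot separate depth or doubled reads from the group. With reads divided by 2 this SD fell to 10.4 points in control and 9.67 in arsenic pools, and the difference was -0.690 points (exact permutation p = 0.0159). The SD that each pool shared with all other pools of both groups, 8.79 points ± 0.0822 and 8.61 ± 0.155, differed by -0.184 points (exact permutation p = 0.0556). Covariances across groups enter both values and draw them together. Within groups, control pairs gave 8.92 and arsenic pairs 8.51 points, a difference that was not tested. The share of discordant dyads was 5.35% ± 0.431 and 5.14% ± 0.425 (exact permutation p = 0.437), and with reads divided by 2 the order turned, by 0.0800 points.

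No single dyad was called for a change of its strand difference with arsenic. Of 312039 dyads 0 were called in limma (0%), with a smallest adjusted p of 0.172, and 15242 (4.88%) had an unadjusted p under 0.05. All 18 alternative fits gave 0 calls as well, with 4766 to 15641 dyads at an unadjusted p under 0.05. The smallest p belonged to a dyad in an exon of Tead3, a transcription factor of the Hippo pathway, on chr17 at 28341384. Its strand difference was 6.67, 21.4, 5.56, 0 and 18.2 points in control pools 1 to 5 and -11.5, -10.5, -6.25, -18.2 and -7.14 points in arsenic pools 1 to 5. The groups did not overlap, with means of 10.4 and -10.7 points, but the dyad was chosen for its p and did not pass the adjustment (limma adjusted p = 0.172). In the other direction it was an intronic dyad of Crmp1, a phosphoprotein of axon guidance, on chr5 at 37244619, with -6.13 and 2.33 points (adjusted p = 0.303).

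Neighbouring dyads leaned the same way when they lay in the same MspI fragment. This comparison was chosen after the values were seen. The covariance of strand differences between different pools was 8.02 points squared at 2 to 5 bases, 44.9% of the dyads' own shared variance, and 8.57 at 81 to 150 bases (25.3%). At 151 to 300 bases it was 4.20 (14.2%). Within a fragment the covariance thus did not fall up to 150 bases, whereas its share of the dyads' own shared variance did, that variance being 17.8 points squared at 2 to 5 bases and 33.8 at 81 to 150 bases. For dyads in different fragments it was 1.49 at 21 to 40 bases (7.09%), 0.502 at 41 to 80, 1.03 at 81 to 150 and 0.0688 at 151 to 300 bases.

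**Figure D5:**
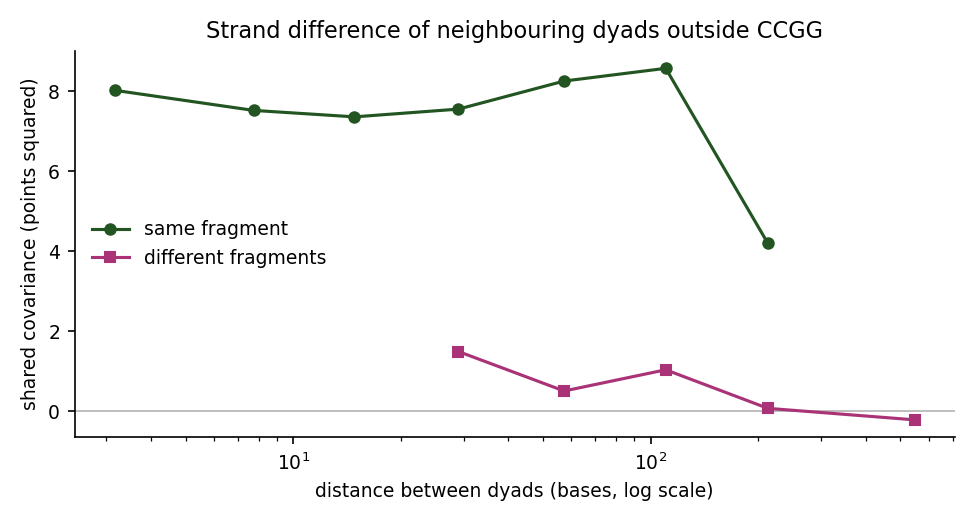
Shared covariance of the strand difference in points squared (y axis) between dyads outside CCGG against their distance in bases (x axis, log scale, bins drawn at their geometric middle). Dyads of the same MspI fragment stay between 7.36 and 8.57 up to 150 bases, and dyads of different fragments lie between -0.220 and 1.49.

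The sign behaved alike. Where the first dyad differed by 10 points or more, the neighbour in the same fragment had the same sign at 77.6% of 2514 pairs at 2 to 5 bases and at 65.8% of 8363 pairs at 81 to 150 bases. In different fragments it was 58.0% of 176 pairs at 21 to 40 bases and 50.5% of 2732 pairs at 81 to 150 bases. Neighbours in a fragment share reads, which enter these shares of equal sign but not the covariance, since that is taken between different pools. Control pairs of pools gave 8.37 and arsenic pairs 7.75 points squared at 2 to 5 bases, a difference that was not tested.

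Distance to the fragment end went with a strand difference outside CCGG, in bins chosen after the values were seen. At 3 bases from the nearer end (2089 dyads) the near strand was lower by -3.49 points ± 0.608 (SD, n = 10) and at 4 to 5 bases (4897 dyads) by -2.36 points ± 0.374, in 10 of 10 pools each (adjusted p = 0.00220, exact sign-flip permutation over 10 pools). From 6 to 75 bases the near strand was higher by 0.231 to 0.457 points, in 10 of 10 pools in each bin. No bin differed between groups (p of 0.103 to 0.754 before adjustment).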

How the data were processed

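DNA methylation was measured by RRBS in 10 pools, 5 control and 5 arsenic. Per the submitters' processing notes, Trim Galore 0.6.5, Bismark 0.22.3 and methylKit 1.22.0 were used with build mm10. The authors trimmed adapters, mapped reads and kept cytosines, strands apart, with a coverage of at least 10 in all 10 samples; the deposited values are counts of all, methylated and unmethylated reads per cytosine and pool. Overlapping mates may have been counted in both reads, and intervals over reads would cover counting error only.

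Levels, covariances and exact permutation tests were computed in Python 3.11.15 (numpy 2.4.6, scipy 1.17.1), and dyads were fitted in R 4.3.3 with limma 3.58.1, with a pseudocount of 1, group means and variances moderated along the mean log2 ratio. Two-sided permutations used all 252 group assignments (smallest p 0.00794) or all 1024 sign flips (smallest p 0.00195). The limma fit and both SD estimates were tested on simulated data. Sequence and MspI sites were read from GRCm38, and genes, exons and promoters (1 kb before to 100 bases after a start) from GENCODE vM21.

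Dyads were named by rule: the 3 largest differences of each sign outside CCGG and the largest inside it among calls with the same sign in 10 of 10 pools, 2 equal dyads at levels of 45% to 55% and the smallest p of the group difference in each direction, without chromosome 18 and the highest 0.1% of coverage. The members, lists and tests were chosen with earlier results of these data known. Alternatives changed coverage, CCGG, pseudocount, scale, trend, thinning, the replicate block and each pool left out. Whether pools shared dams is not given in the sources used here, and p-values measure the spread between pools.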

Additional observations from a re-analysis of the deposited data

Results flagged for a closer look

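The SD of the strand difference beyond counting error differed between groups, by -0.857 points arsenic minus control (exact permutation, two-sided p = 0.0476), and so did the bins outside CCGG at levels of 10% to 20%, by -2.07 points, and of 40% to 50%, by -1.60 points (adjusted p = 0.0476 each over 12 bins). Both bins lost their adjusted call without any 1 of the 5 control pools or without arsenic 2. Of the 12 bins, 6 had an unadjusted p under 0.05. Within control, pool 5 stood apart in the flank CCGC over GCGG, at 0.713 points against 1.01 to 1.10 points in the other 4 pools. It was the only such sample in 28 groups of values examined, where chance gives about 1.4.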

How the results depend on the processing

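Replicate numbers are shared by the groups, and the sample labels do not say whether they pair the pools. Deviations of same-numbered pools from their group means correlated at -0.000408 to 0.0116, and 2 of 5 pools correlated best with their own number. Counting error enters these deviations, so the correlations cannot decide whether same-numbered pools belong together. With the replicate block 18146 dyads were called for strand asymmetry and 0 for the group difference, and the SD beyond counting error differed by -0.857 points with an exact p = 0.125, where 0.0625 is the smallest p possible. That SD also lost its call without CCGG dyads (-0.991 points), and without each pool in turn it ran from -1.01 to -0.634 points. The SD shared between pools ran from -0.223 to -0.151 points without each pool in turn, passing the threshold without arsenic 2 (exact permutation p = 0.0476) or arsenic 3 (p = 0.0317). The number of asymmetric dyads was 6802 of 94708 with a coverage of at least 20, 11792 in percentage points and 8605 with at least 20 points. Values that were not called changed sign as follows. The share of discordant dyads, arsenic minus control, was 0.0800 points with reads divided by 2. The mean of plus minus minus became -0.0262 points at a coverage of at least 20, its group difference 0.0447 points there, and -0.0350 to 0.00869 points without each pool in turn. The difference in mean level ran from -1.001 to 0.160 points without each pool in turn. The 6 flank pairs kept direction and call under all 14 alternatives of each. Depth limits single dyads: at the coverage minimum of 10 reads a level moves in steps of 10 points, so small differences are visible in means over many dyads and not at 1 dyad. Left-out pools for the group differences of flanks were added after seeing the data; without control 1 ACGA over TCGT turned to 0.0227 points. In the bins of level, 0 to 5 of the 12 had an adjusted p under 0.05 when a pool was left out, and 0 without control 1, 2, 3, 4 or 5 or arsenic 2.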
